A study of Rattus norvegicus with 12 samples.

Results

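The comparison was the net change of cultured rat atrial myocytes carrying an shRNA against Sbk2, measured from cells that had received no vector at all. For each gene the log2 ratio of shRNA 1 over untransduced and the log2 ratio of shRNA 2 over untransduced were averaged, with 0.5 added to each value in CPM (a gene's reads as a share of the library total, scaled up alike in every library). Genes were included if they reached 0.5 CPM in any of these 3 groups, which left 12642 features, 6 of them transgene or vector features, of 32761 in the table. A gene under 0.5 CPM in untransduced cells was therefore kept only if an shRNA group was higher. The rise of such a gene was partly set by the filter, also within list counts and medians. The 3 groups held 9 of the 12 samples. The remaining group, 3 samples with a control vector, was used to sort each net change by whether it was already present in that group.

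The cells were iAM-1, neonatal Wistar rat atrial myocytes immortalized in a conditional way, and polyA-selected libraries of their RNA were sequenced. All groups carried the transgenes of the line, among them the temperature-sensitive LT-tsA58 large T antigen. All were differentiated in 2% serum with doxycycline left out. The untransduced group received nothing further. The other groups received, early in differentiation, a lentiviral vector with the ppluc shRNA, with Sbk2 shRNA #1 or with Sbk2 shRNA #2, called shRNA 1 and shRNA 2 here. No group received the vector without an shRNA. Where a change is ascribed to the vector below, it was seen in the ppluc group. The vector, the ppluc shRNA and the handling of that group cannot be told apart. The groups were separate samples, so steps from untransduced to ppluc to knockdown are differences between groups and not a course in time. The marks D9 and P10 in all titles have no explanation in the labels. Nor has the number that opens each title, which is the same in all Sbk2 shRNA samples and differs between all samples of the other groups. The line is a single cell line, and nothing in the labels says that the 3 samples of a group came from separate cultures. The p-values therefore measure the spread between these samples, which may be technical, and every p is adjusted over all 12642 features.

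Sbk2 encodes a serine/threonine kinase of the SH3-binding domain kinase family, whose transcript is found in atrial muscle. Atrial myocytes contract through sarcomeres, in which myosin thick filaments pull on actin thin filaments anchored at Z-discs, and they draw on fatty acid oxidation and mitochondrial respiration for energy. Cells that receive a lentivirus and an shRNA can also answer the vector itself, for example through interferon genes, p53 or the integrated stress response, which slows translation and raises amino acid supply genes. A difference from a control vector can therefore mean a move away from the untransduced level or a move back to it.

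The libraries held 30274847 to 47517427 assigned reads, so that 3 reads corresponded to 0.0631 to 0.0991 CPM. The deposited CPM values are means over the 3 libraries of a group, and single libraries were recovered from them by arithmetic. Library values are given in order of read total, which pairs nothing across groups. Along the first principal component (66.8% of variance) positions ran from -48.0 to -47.4 in the untransduced libraries, from -38.2 to -36.5 with ppluc, from 2.88 to 3.04 with shRNA 1 and from 76.0 to 86.8 with shRNA 2. The smallest shRNA 2 library lay at 76.0, apart from the others at 83.1 and 86.8, and without it 10645 genes were called against untransduced instead of 10463. The median gene of the shRNA libraries was 0.33 higher (log2) than in untransduced libraries on the deposited scale. Trimmed-mean scaling, which centres the genes near no change, is therefore given beside the deposited scale for many of the counts and genes below, and counts without it are on the deposited scale.

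Sbk2 (ENSRNOG00000038625, Rnor_6.0 chr1:72425707-72433488) stood at 42.6, 47.3 and 45.6 CPM in the untransduced libraries, 1.09, 1.0 and 1.13 with shRNA 1 and 0.719, 0.620 and 0.681 with shRNA 2. The groups did not overlap, and the net log2 difference was -5.07 ± 0.09 (SE, 3 libraries a group, adjusted p = 1.3e-18). Cells with ppluc held 29.6, 24.8 and 26.9 CPM, lower than every untransduced library, so that the fall against untransduced included a log2 difference of -0.73 ± 0.1 that came with the control vector. Sbk3, a related kinase gene whose annotated locus lies beside Sbk2, stood at 6.87, 7.02 and 7.33 CPM in the untransduced libraries, 2.44, 2.4 and 3.22 with shRNA 1 and 1.44, 0.898 and 1.17 with shRNA 2. Its libraries did not overlap either, and its net difference was -1.72 ± 0.12 (adjusted p = 2.3e-10). Sbk1 had at most 3 reads in any library and was not tested.

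Both shRNAs together differed from untransduced at 10463 genes, 82.8% of those tested (limma on log2(CPM + 0.5), Benjamini-Hochberg adjusted p under 0.05). Of these 7696 were higher, 60.9% of all tested, and 2767 were lower, 21.9%. After trimmed-mean scaling the split was even, with 4885 higher (38.6%) and 5088 lower (40.2%). At 1.5-fold or more, 4281 genes were higher (33.9%) and 1342 lower (10.6%), against 18.1% and 19.4% after scaling. The 6 knockdown libraries lay wholly above the 3 untransduced ones for 5176 genes (40.9%) and wholly below for 1645 (13.0%). In these bulk libraries, fewer cells of a type and less RNA per cell cannot be told apart.

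Changes against the control vector were mostly not returns. A return needs a difference of ppluc from untransduced the other way. Ppluc had called differences of 2-fold or more at 251 higher and 278 lower genes. The share of returns was therefore bounded by the genes that ppluc had moved. Against ppluc 10467 genes were called, 82.8% of those tested, and 5371 of them differed by 1.5-fold or more, 34.8% of all tested being higher and 7.68% lower. Of these 5371 genes, 3923 (73.0%) had also passed 1.5-fold beyond the untransduced level in the same direction, and 803 (15.0%) lay at the untransduced level, meaning that the 95% interval of the net difference stayed inside 1.5-fold either way. A further 619 fell between these classes, and 26 had moved back only part of the way, remaining 1.5-fold or more on the vector's side of untransduced. After trimmed-mean scaling 4096 genes passed, 15.7% of all tested higher and 16.7% lower, with 2965 beyond the untransduced level and 675 at it. Read from the other side, 5623 genes had a net change of 1.5-fold or more. For 2592 of them (46.1%) ppluc had stayed inside 1.5-fold of untransduced and knockdown passed 1.5-fold against ppluc in the same direction. For 479 (8.52%) the change was present with ppluc and knockdown stayed inside 1.5-fold of ppluc. For 469 the vector and the knockdown each moved the gene 1.5-fold in the same direction, and the remaining 129 and 1954 had moved against the vector or fitted none of these. All these comparisons share libraries, and the classes are a description with no test of their own.

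The 4 marker genes given with the comparison showed the different outcomes. Csrp3, muscle LIM protein of the Z-disc (ENSRNOG00000014327, Rnor_6.0 chr1:104147206-104166367), stood at 20.1, 20.0 and 21.2 CPM in the untransduced libraries, 17.9, 17.7 and 17.0 with shRNA 1 and 4.97, 5.45 and 5.58 with shRNA 2, and at 58.1, 57.5 and 68.5 CPM with ppluc. Every ppluc library was above and every knockdown library below the untransduced ones. The vector had raised Csrp3 by 1.56 ± 0.08 (log2), and the net difference of both shRNAs was -1.03 ± 0.07 (adjusted p = 7.6e-11), of which shRNA 2 gave most: -0.22 ± 0.08 with shRNA 1 and -1.85 ± 0.08 with shRNA 2.

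Cnn1, calponin 1, an actin-binding protein typical of smooth muscle and immature heart muscle (chr8:23113048-23121761), stood at 149.6, 149.9 and 155 CPM in the untransduced libraries, 272, 256 and 269 with shRNA 1 and 111, 76.1 and 66.6 with shRNA 2, and at 382, 402 and 409 CPM with ppluc. The mean of both shRNAs lay at the untransduced level (-0.03 ± 0.1, adjusted p = 0.77), yet no single shRNA did. After trimmed-mean scaling the mean was called lower (-0.4) and its interval left 1.5-fold, and without the smallest shRNA 2 library it was called as well (-0.14). With shRNA 1 every library was above untransduced (0.81 ± 0.11) and with shRNA 2 every library was below it (-0.87 ± 0.11), and the smallest shRNA 2 library was the nearest to untransduced.

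Col8a1, a short-chain collagen of vessel walls (chr11:44877859-45007891), stood at 13.8, 15.3 and 12.5 CPM in the untransduced libraries, 18.9, 18.2 and 20.1 with shRNA 1 and 23.5, 27.1 and 27.4 with shRNA 2. With ppluc it held only 2.9, 3.18 and 2.25 CPM. All 6 knockdown libraries lay above the untransduced ones, with a rise of 2.8 ± 0.09 over ppluc and a net difference of 0.67 ± 0.09 (adjusted p = 3.0e-06). This was past 1.5-fold on the deposited scale, but after trimmed-mean scaling the net difference was 0.31 and the gene counted as at the untransduced level. Tmsb4x, thymosin beta 4, which binds monomeric actin (chrX:28593405-28595395), stood at 268, 255 and 256 CPM in the untransduced libraries, 179, 166 and 184 with shRNA 1 and 228, 227 and 189 with shRNA 2, against 91.0, 86.3 and 95.5 CPM with ppluc. The difference was -1.51 ± 0.06 with the vector and 1.09 ± 0.06 from ppluc to knockdown. All 6 knockdown libraries remained under the untransduced ones, with a net difference of -0.42 ± 0.06 (adjusted p = 1.3e-06) whose interval stayed inside 1.5-fold. After scaling it was -0.79, so that the gene then counted as still on the vector's side.

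**Figure D1:**
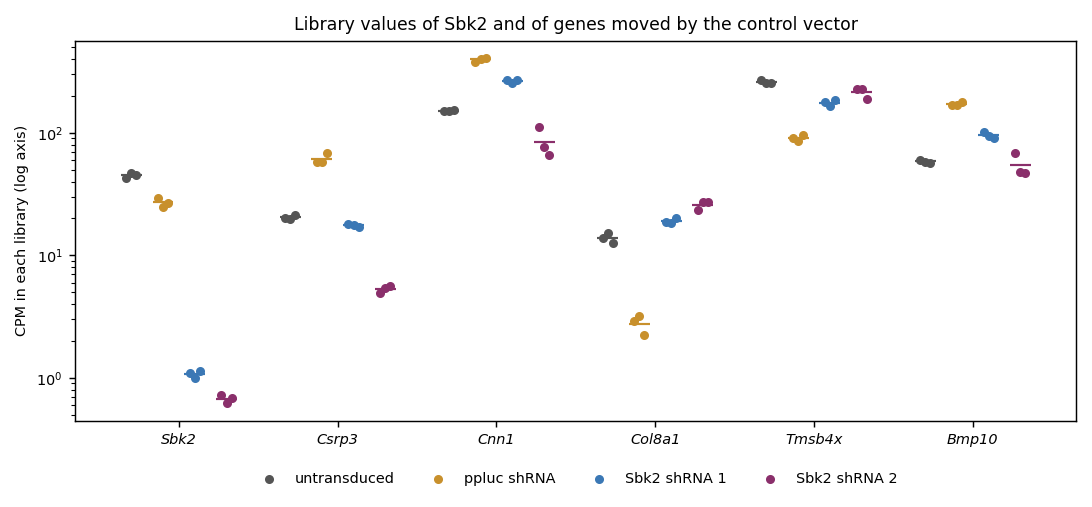
CPM of Sbk2, the 4 marker genes and Bmp10 in each of the 12 libraries (log axis), coloured by group, with the mean of the 3 libraries as a bar. Sbk2 falls from 42.6 to 47.3 CPM to about 1 CPM with either shRNA, while Csrp3 and Cnn1 are highest and Col8a1 and Tmsb4x lowest with ppluc.

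Genes of the contractile apparatus fell below both controls. All 9 thick filament genes measured were lower than in untransduced cells, with a median difference of -2.05, and so were all 10 thin filament genes, with a median of -1.27, against a share of lower calls of 21.9% and a median of 0.33 over all genes. Of the 7 thick filament genes that passed 1.5-fold against ppluc all 7 had passed 1.5-fold beyond untransduced, and of the 10 thin filament genes 8 had. Over all genes 735 of the 971 that were 1.5-fold lower than with ppluc had, so the thin filament share was near that of all genes. Among them were the atrial myosin light chains. Myl7, the atrial regulatory light chain, stood at 6146, 5817 and 6063 CPM in the untransduced libraries, 916, 813 and 981 with shRNA 1 and 546, 464 and 532 with shRNA 2. Its libraries were far apart, with a net difference of -3.14 ± 0.08 (adjusted p = 9.5e-17), against -0.22 ± 0.09 with ppluc. Myl4, the atrial essential light chain, stood at 7533, 7449 and 7688 CPM in the untransduced libraries, 3106, 2908 and 3176 with shRNA 1 and 1221, 940.2 and 1113 with shRNA 2, a net difference of -2.05 ± 0.08 without overlap. The heavy chain Myh7 stood at 269.7, 229.6 and 230.5 CPM in the untransduced libraries, 31.2, 28.7 and 34.5 with shRNA 1 and 7.42, 8.33 and 9.15 with shRNA 2. For Myh7 the net difference was -3.86 ± 0.08. The deposited means of Myh6, the main atrial heavy chain, were 26145, 15059.9, 3104 and 852 CPM untransduced, with ppluc, with shRNA 1 and with shRNA 2, and it differed by -4.06. For Myh6 several sets of library counts fit the deposited means, so no error is printed, here and for the other genes given as deposited means with no error. Myh6 and Myh7 are near-identical neighbours, and the actin genes are close copies of each other. No source used here says how shared reads were counted.

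In the thin filament the troponins fell with both shRNAs. Tnni3, the cardiac inhibitory troponin, stood at 508, 493 and 526 CPM in the untransduced libraries, 270.1, 254 and 286 with shRNA 1 and 60.2, 59.9 and 79.5 with shRNA 2, with no overlap between groups and a net difference of -1.93 ± 0.08. Tnnc1, the calcium-binding troponin, stood at 734, 723 and 752 CPM in the untransduced libraries, 458, 427 and 429.6 with shRNA 1 and 88.0, 85.6 and 94.6 with shRNA 2. For Tnnc1 the net difference was -1.89 ± 0.04. Over the 10 genes the median was -0.57 with shRNA 1, where 7 were lower and 2 higher, and -1.98 with shRNA 2, where all 10 were lower; over all genes 51.1% were higher and 24.2% lower with shRNA 1, and 62.8% and 22.9% with shRNA 2. Acta1, skeletal alpha actin, which the fetal heart also expresses, was one of those higher with shRNA 1: it stood at 135, 141 and 135 CPM in the untransduced libraries, 237, 192 and 225 with shRNA 1 and 18.6, 19.4 and 21.0 with shRNA 2. It therefore moved up with one shRNA and down with the other, and its net difference of -1.06 ± 0.06 came from shRNA 2. Tpm2, beta tropomyosin, was the member at the untransduced level: 877, 1413, 829.8 and 639.8 CPM untransduced, with ppluc, with shRNA 1 and with shRNA 2, a net difference of -0.27 ± 0.08, or -0.64 and past 1.5-fold after trimmed-mean scaling.

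Most Z-disc and assembly genes were lower, with 13 of 17 lower, 3 higher and a median of -0.90. With shRNA 1 the median was -0.29, with 10 lower and 5 higher, and with shRNA 2 it was -1.40, with 14 lower and 3 higher. The summed level of the list was 11517 to 11769 CPM untransduced, 12588 to 12730 with shRNA 1 and 6374 to 7399 with shRNA 2. Tcap, which caps titin at the Z-disc, went from 33.9, 35.5 and 34.1 CPM untransduced to 4.56, 4.04 and 5.93 with shRNA 1 and 1.37, 1.24 and 2.56 with shRNA 2. This net difference of -3.38 ± 0.14 was made of nearly equal steps, -1.68 ± 0.17 with ppluc and -1.7 ± 0.14 from ppluc to knockdown. Ldb3, the PDZ-LIM protein ZASP, stood at 1454, 1431 and 1420.0 CPM in the untransduced libraries, 665, 673 and 688 with shRNA 1 and 280.3, 233 and 243 with shRNA 2. For Ldb3 the net difference was -1.8 ± 0.05. Smyd1, the myosin-folding methyltransferase, stood at 302, 299 and 302 CPM in the untransduced libraries, 122, 128 and 120.4 with shRNA 1 and 53.1, 42.2 and 49.4 with shRNA 2. For Smyd1 the net difference was -1.96 ± 0.05. Neither overlapped its untransduced libraries. Actn2, sarcomeric alpha actinin, had a smaller net difference of -0.93 ± 0.07 (1103, 875, 895 and 376 CPM in the same order of groups as above). Pdlim3, another alpha actinin partner, moved the other way, from 283 CPM to 1031 and 757, a net rise of 1.64 ± 0.05.

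Serum response factor drives many sarcomere and actin genes through the CArG box, so the promoters of these lists were searched for it in the 250 bases before each start (RefSeq, GRCr8, both strands of this palindromic motif at once). It was found in 501 promoters of the table, 1.5%. Members holding it were 2 of 8 thin filament genes with a single promoter entry (Acta1 and Nebl), 1 of 10 Z-disc genes (Ldb3), 1 of 7 thick filament genes (Myl3) and 3 of 19 actin and SRF list genes (Cnn2, Actg1 and Srf). Shown are 100 bases of Acta1, chr19:68784234-68784333, and Ldb3, chr16:9924680-9924779, both on the minus strand and written 5′ to 3′ toward the gene, with the CArG box in capitals, because Acta1 split between the shRNAs and Ldb3 fell with both.
Acta1: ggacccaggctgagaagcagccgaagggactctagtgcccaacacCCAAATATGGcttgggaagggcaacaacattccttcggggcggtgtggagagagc
Ldb3: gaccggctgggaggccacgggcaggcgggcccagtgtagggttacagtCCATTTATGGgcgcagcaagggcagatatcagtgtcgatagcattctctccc
A match describes the letters of the window only.

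Among calcium handling genes several of the sarcoplasmic reticulum fell far. Of 25 members 15 were lower and 7 higher (median -0.48), or 19 and 4 after trimmed-mean scaling. Hrc, which binds calcium and regulates release in the sarcoplasmic reticulum, stood at 126, 129 and 132 CPM in the untransduced libraries, 6.77, 6.92 and 6.89 with shRNA 1 and 4.48, 6.29 and 6.67 with shRNA 2, without overlap, a net difference of -4.26 ± 0.09. Atp2a2, the SERCA2 pump, had deposited means of 18131, 10831, 4651 and 1586 CPM untransduced, with ppluc, with shRNA 1 and with shRNA 2, a difference of -2.74. Srl, sarcalumenin, stood at 1253, 1232 and 1242 CPM in the untransduced libraries, 347, 328 and 355 with shRNA 1 and 347, 283 and 298 with shRNA 2. For Srl the net difference was -1.93 ± 0.05. Cacna1g, the T-type channel subunit, stood at 1008, 1071 and 1056 CPM in the untransduced libraries, 417, 453 and 433 with shRNA 1 and 129.6, 83.0 and 96.0 with shRNA 2. For Cacna1g the net difference was -2.31 ± 0.09. Pln, phospholamban, had fallen with the vector already: at 994, 475, 299.9 and 562 CPM it differed by -1.07 ± 0.05 with ppluc and by a net -1.28 ± 0.05. Stim1, the store calcium sensor, was among the 7 that rose (21.4, 36.1 and 47.2 CPM untransduced, with shRNA 1 and with shRNA 2, 0.93 ± 0.06).

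Ion channel and conduction genes were lower in 11 of 16 cases and higher in 2 (median -0.90). Kcnq1, a potassium channel of repolarization, stood at 81.8, 84.3 and 92.8 CPM in the untransduced libraries, 18.8, 19.2 and 20.3 with shRNA 1 and 7.15, 6.69 and 8.36 with shRNA 2. For Kcnq1 the net difference was -2.79 ± 0.07 without overlap. Hcn4, the pacemaker channel, was higher with ppluc and lower with each shRNA than in untransduced cells. It stood at 137, 153 and 153 CPM in the untransduced libraries, 79.4, 90.9 and 77.6 with shRNA 1 and 10.7, 8.89 and 11.2 with shRNA 2. With ppluc it held 311, 303 and 296 CPM, a vector difference of 1.04 ± 0.07 beside a net one of -2.31 ± 0.06.

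Energy genes ended below untransduced cells in each of 4 lists, and the vector had lowered many of them. Of 11 muscle energy buffer genes 9 were lower and 1 was higher (median -1.89). Ckm, muscle creatine kinase, stood at 45.7, 49.3 and 49.3 CPM in the untransduced libraries, 1.12, 1.24 and 1.11 with shRNA 1 and 0.163, 1.3 and 0.762 with shRNA 2, and at 11.0, 13.2 and 13.9 CPM with ppluc. The shRNA libraries lay under ppluc and ppluc under untransduced, the vector step was -1.88 ± 0.23 and the net difference -5.14 ± 0.2 (adjusted p = 2.9e-14). The smallest shRNA 2 library held the lowest value. Perm1, a regulator of muscle mitochondria, stood at 16.4, 16.6 and 17.6 CPM in the untransduced libraries, 3.21, 3.03 and 3.49 with ppluc, 0.595, 0.516 and 0.517 with shRNA 1 and 0.784, 0.991 and 0.436 with shRNA 2. Myoglobin, Mb, had 10.8, 1.71, 0.122 and 0.0703 CPM untransduced, with ppluc, with shRNA 1 and with shRNA 2, and several knockdown libraries were at or under the floor of 3 reads, so no fold is given. All 13 mitochondrially encoded mRNAs were lower, with a median of -1.23, and 12 of them were lower with ppluc alone, with a median of -0.60. Mt-nd4, a complex I subunit, stood at 451, 453 and 394 CPM in the untransduced libraries, 81.0, 99.7 and 87.1 with shRNA 1 and 206, 197 and 208 with shRNA 2, and its net difference was -1.68 ± 0.08. The median was -1.59 with shRNA 1 and -0.85 with shRNA 2. Of 36 nuclear oxidative phosphorylation genes 34 were lower and 1 higher (median -0.75). All 11 that passed 1.5-fold against ppluc had passed it beyond untransduced, as had all 30 after scaling. Over all genes lower than with ppluc 735 of 971 had, or 1589 of 2109 after scaling. Of 26 fatty acid oxidation genes 19 were lower and 1 higher (median -0.60). Hadh, an enzyme of the beta-oxidation spiral, showed the vector's share, at 93.7, 34.1, 18.5 and 30.4 CPM and -1.44 ± 0.06 of a net -1.96 ± 0.05, whereas Decr1, the dienoyl-CoA reductase, moved with knockdown, at 194, 182, 90.5 and 43.7 CPM, -0.09 ± 0.05 with ppluc and a net -1.62 ± 0.04. In this list 20 of 26 were lower and 1 higher with ppluc alone, against 32.0% and 24.6% of all genes.

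**Figure D2:**
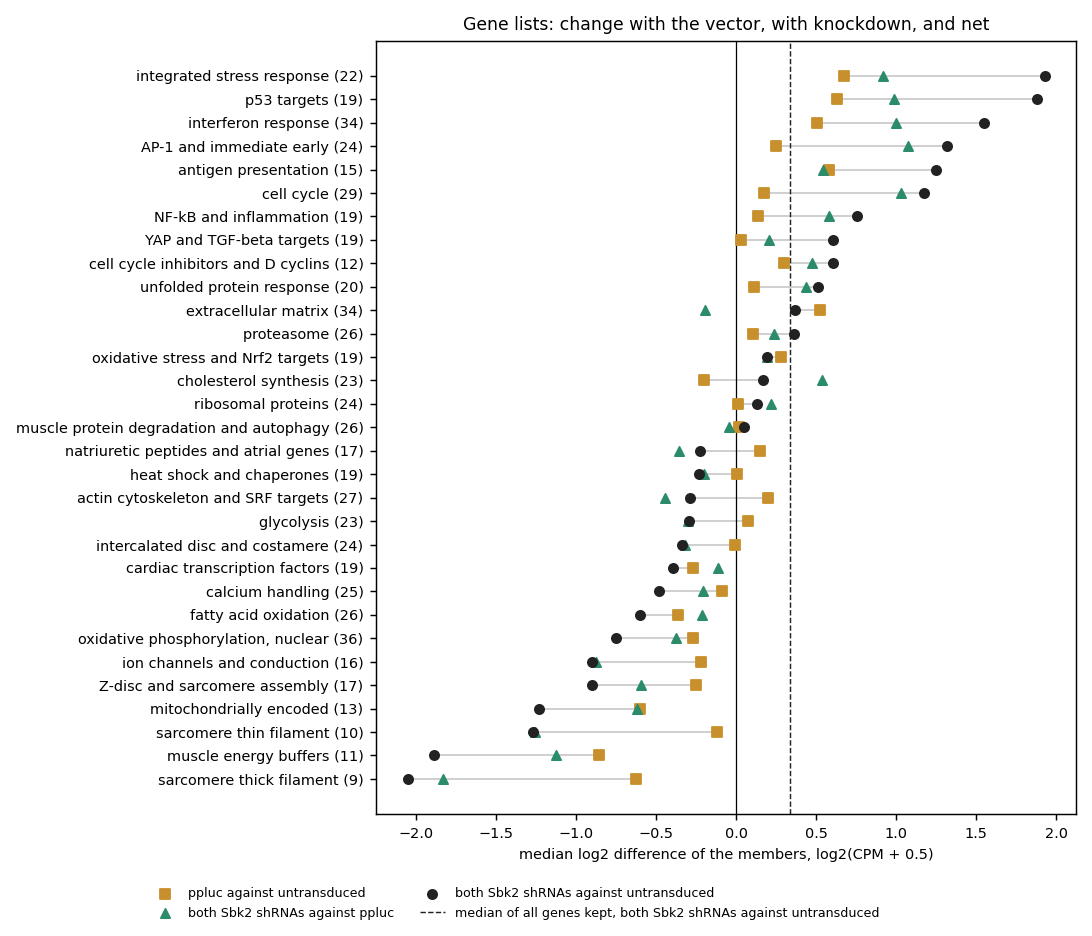
Median log2 difference of the members of 31 gene lists (members kept in brackets) for ppluc against untransduced (squares), both shRNAs against ppluc (triangles) and both shRNAs against untransduced (circles). The thick filament list lies lowest at -2.05 and the integrated stress response list highest at 1.93. In several lists, among them matrix, cholesterol, actin and SRF, and natriuretic and atrial genes, the triangle lies on the other side of 0 from the square.

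Of the 803 genes at the untransduced level 664 had risen against ppluc and 139 had fallen, a split that became 356 and 319 after trimmed-mean scaling. Over all genes, 139 of the 971 that were 1.5-fold lower than with ppluc lay at the untransduced level, or 319 of 2109 after scaling. Of the 13 such actin and SRF genes 5 did, of the 9 glycolysis genes 3, of the 7 natriuretic and atrial genes 2 and of the 11 extracellular matrix genes 2. The 3 glycolysis genes were Eno1, the general enolase (-0.5 ± 0.04), Pfkp, a phosphofructokinase (-0.35 ± 0.05), and Ldha, a lactate dehydrogenase subunit (-0.31 ± 0.04), and after scaling all were past 1.5-fold below untransduced. After scaling the counts were 5 of 17 for actin, 0 of 12 for glycolysis, 2 of 11 for natriuretic and atrial and 5 of 17 for matrix genes. Nppa, atrial natriuretic peptide, had deposited means of 17824, 27264, 17455 and 13572 CPM untransduced, with ppluc, with shRNA 1 and with shRNA 2. It differed by -0.83 from ppluc and by -0.22 from untransduced. After trimmed-mean scaling the latter was -0.59, past 1.5-fold, and Nppa no longer counted as a return. Bmp10, an atrial growth factor, stood at 60.3, 58.2 and 57.1 CPM in the untransduced libraries, 102, 93.7 and 91.4 with shRNA 1 and 69.1, 48.1 and 46.9 with shRNA 2, with 167, 169 and 177 CPM under ppluc. It was above untransduced in every shRNA 1 library (0.7 ± 0.1) and around it with shRNA 2 (-0.12 ± 0.1), a net 0.29 ± 0.08 and a difference of -1.25 ± 0.08 from ppluc. Nppb, B-type natriuretic peptide, did the reverse and rose past both controls, at 342, 329.7 and 324 CPM in the untransduced libraries, 978, 839 and 927 with shRNA 1 and 503, 453 and 487 with shRNA 2. For Nppb the net difference was 1.0 ± 0.05. Corin, the protease that activates natriuretic peptides, fell from 286 CPM with ppluc to 103 and 33.3, under the 195 of untransduced cells (-1.73 ± 0.05).

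The actin and SRF list split in the same way. Of 27 members 14 were higher with ppluc and 7 lower. Of the 13 that passed 1.5-fold downward against ppluc, 5 lay at the untransduced level and 8 beyond it. Those at the level were Cnn1, Cnn2, Csrp1, Tagln and Flna, all actin-binding proteins or LIM proteins of the contractile cytoskeleton. Csrp1 stood at 728, 732 and 759.6 CPM in the untransduced libraries, 838, 796 and 817 with shRNA 1 and 527, 448 and 482 with shRNA 2, and Cnn2 at 111, 110.1 and 115 CPM in the untransduced libraries, 222, 210.4 and 210.0 with shRNA 1 and 80.8, 63.7 and 73.6 with shRNA 2. Both lay above untransduced with shRNA 1 and below it with shRNA 2. Tagln, transgelin, had deposited means of 6869, 10679, 7073 and 4512 CPM in the order untransduced, ppluc, shRNA 1 and shRNA 2. Flna, filamin A, had deposited means of 2933, 5006, 4273 and 2152 CPM in that order and differed by 0.54 with shRNA 1 and -0.46 with shRNA 2. After trimmed-mean scaling the net differences of Tagln, Csrp1 and Cnn1 were -0.66, -0.6 and -0.4, so that their place at the untransduced level depended on the scale, while Cnn2 and Flna kept theirs. Among the 8 beyond it, Mylk, the myosin light chain kinase of smooth muscle, stood at 1324, 1333 and 1255 CPM in the untransduced libraries, 165, 139 and 169 with shRNA 1 and 128, 108 and 90.7 with shRNA 2, against 1323, 1320.0 and 1327 CPM with ppluc, a net difference of -3.32 ± 0.08 beside 0.02 ± 0.09 with ppluc (adjusted p = 0.85). Acta2, smooth muscle actin, had deposited means of 7694, 6885, 3112 and 2379 CPM and a net difference of -1.51.

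Outside the lists, returns included genes that were lower with ppluc. Both Sbk2 groups also received a lentiviral vector, so a low level with ppluc alone may belong to the ppluc shRNA or to that group. These cannot be told apart here. Fbxo8, an F-box protein, stood at 39.5, 39.4 and 38.3 CPM in the untransduced libraries, 47.1, 43.2 and 46.4 with shRNA 1 and 45.0, 50.2 and 51.0 with shRNA 2, against 15.5, 15.3 and 14.9 CPM with ppluc. Its knockdown libraries sat slightly above untransduced (0.27 ± 0.05) after a rise of 1.6 ± 0.05 over ppluc. Utp15, a factor of ribosome assembly, stood at 25.7, 22.0 and 22.9 CPM in the untransduced libraries, 30.6, 30.7 and 28.9 with shRNA 1 and 24.3, 25.1 and 26.5 with shRNA 2, against 9.37, 9.48 and 9.09 with ppluc, and Elmod3, an ELMO domain protein, at 7.58, 6.87 and 6.1 CPM in the untransduced libraries, 7.4, 7.56 and 7.24 with shRNA 1 and 7.12, 7.93 and 8.09 with shRNA 2, against 2.95, 2.16 and 2.08. In both genes every ppluc library lay below all others. Asah1, acid ceramidase, was low with ppluc alone, at 169, 166 and 155 CPM in the untransduced libraries, 316, 286 and 283 with shRNA 1 and 189, 207 and 191 with shRNA 2, with 47.2, 40.9 and 44.4 CPM under ppluc; its net difference of 0.56 ± 0.05 was small beside the rise of 2.43 ± 0.05 over ppluc. Such genes, lower with ppluc by 2-fold than in untransduced cells and raised 2-fold over ppluc by each shRNA, numbered 40 of the 278 that ppluc lowered 2-fold, and 13 of the 251 it raised 2-fold went the opposite way. After trimmed-mean scaling they were 21 of 275 and 25 of 285. On the trimmed-mean scale the small net differences of Bmp10 (-0.07), Cnn2 (-0.22), Fbxo8 (-0.1) and Utp15 (-0.14) turned negative.

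A return of the mean was often not a return with each shRNA. Of the 803 genes at the untransduced level, 201 (25.0%) had both shRNAs inside 1.5-fold with their intervals. In 266 (33.1%) the shRNAs were called in opposite directions, against 1773 of the 12642 genes tested. Choosing genes by a mean near untransduced favours opposite directions, so this share is partly set by the selection. In 688 (85.7%) the difference between the shRNAs was itself called, against 81.1% of all genes. Among the 139 that had fallen against ppluc, 21 had both shRNAs inside and 72 (51.8%) had them on opposite sides. Within the gene lists both shRNAs were inside for Kcna4, Col6a1, Hmgcs1, Txn1 and Syt1 among the members at the level. After trimmed-mean scaling none of these 5 had both shRNAs inside, although Txn1 and Syt1 stayed at the level in the mean. Hmgcs1, which makes the precursor of mevalonate, stood at 231, 223 and 215 CPM in the untransduced libraries, 183, 172 and 173 with shRNA 1 and 248, 199 and 219 with shRNA 2, against 122, 118 and 127 CPM with ppluc, and Syt1, a calcium sensor of secretion, at 36.6, 39.7 and 36.0 CPM in the untransduced libraries, 34.0, 36.3 and 35.9 with shRNA 1 and 45.8, 36.9 and 35.1 with shRNA 2, against 67.2, 61.3 and 68.5.

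**Figure D3:**
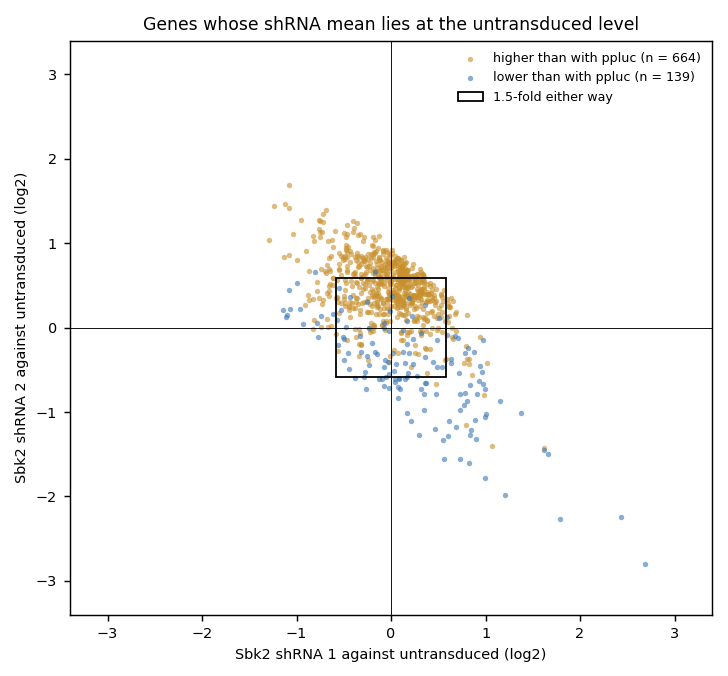
Log2 difference from untransduced with shRNA 1 (x axis) and with shRNA 2 (y axis) for the 803 genes whose mean of both lies at the untransduced level, coloured by direction against ppluc; the square marks 1.5-fold either way. The selection on the mean places points along the falling diagonal, and many lie outside the square with one shRNA above and the other below.

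**Figure D4:**
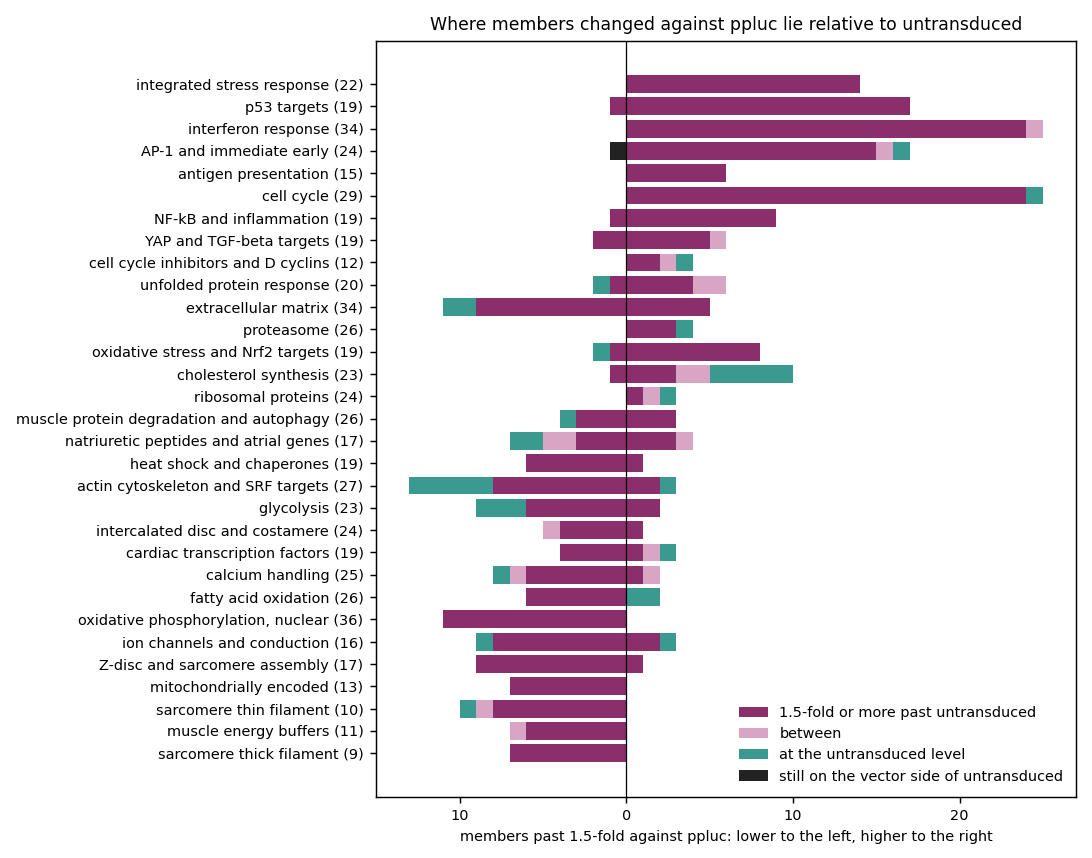
Number of members of each gene list that passed 1.5-fold against ppluc, lower to the left and higher to the right, split by where they lie relative to untransduced cells. Interferon, p53, stress response and cell cycle genes that rose, and sarcomere and respiratory genes that fell, lie almost wholly beyond untransduced, while cholesterol and actin genes hold the largest counts at it.

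Most gains in the lists that follow were not returns either. All 34 interferon response genes were higher than in untransduced cells (median 1.55), and so were all 15 antigen presentation genes (median 1.25). Also higher were 20 of 22 integrated stress response genes (median 1.93, with 1 lower), 17 of 19 p53 targets (median 1.88, with 1 lower) and 27 of 29 cell cycle genes (median 1.17, with 1 lower). The share of higher calls over all genes was 60.9%. Ppluc had taken the same lists part of the way, with 24 of 34 interferon, 14 of 15 antigen presentation, 15 of 22 stress response and 15 of 19 p53 genes higher than untransduced, against 24.6% of all genes. Of the members that rose 1.5-fold against ppluc, 24 of 25 interferon, 6 of 6 antigen presentation, 14 of 14 stress response, 17 of 17 p53 and 24 of 25 cell cycle genes had passed 1.5-fold beyond untransduced. Over all genes that rose 1.5-fold against ppluc 3188 of 4400 had. After trimmed-mean scaling the list counts were 17 of 18, 4 of 4, 10 of 10, 9 of 9 and 14 of 16, beside 1376 of 1987 over all genes.

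The interferon median was 2.52 with shRNA 2, where all 34 were higher, and 0.87 with shRNA 1, where 27 were higher and 1 lower. Rsad2, the antiviral enzyme viperin, stood at 1.81, 1.55 and 0.969 CPM in the untransduced libraries, 6.77, 6.34 and 7.04 with shRNA 1 and 142, 165 and 198 with shRNA 2, with 1.57, 2.31 and 5.2 CPM under ppluc. The ppluc and untransduced libraries overlapped, all shRNA 1 libraries lay above both and all shRNA 2 libraries far above those, and the net difference was 4.19 ± 0.22 (adjusted p = 2.0e-12). Cxcl10, a chemokine that draws T cells, stood at 1.85, 1.52 and 1.62 CPM in the untransduced libraries, 6.67, 6.98 and 7.29 with shRNA 1 and 58.6, 65.4 and 76.0 with shRNA 2. For Cxcl10 the net difference was 3.37 ± 0.1. Oas1a, a sensor of double-stranded RNA, stood at 0.259, 1.03 and 0.285 CPM in the untransduced libraries, 2.38, 2.09 and 2.95 with shRNA 1 and 30.8, 28.2 and 35.1 with shRNA 2, with 2.92, 2.77 and 6.78 CPM under ppluc, a net 3.32 ± 0.23. Here the ppluc and shRNA 1 libraries overlapped, above untransduced and below shRNA 2. Gbp2, a guanylate-binding protein, stood at 28.2, 28.5 and 27.6 CPM in the untransduced libraries, 70.4, 65.0 and 71.0 with shRNA 1 and 343, 385 and 392 with shRNA 2. For Gbp2 the net difference was 2.49 ± 0.05. Oas and Gbp genes are families of close copies whose reads could be split in counting. The vector's own LTR feature stood at 602 CPM with ppluc, 742 with shRNA 1 and 552 with shRNA 2 (deposited means). The part of the vector in these rises was not tested beyond the comparison with ppluc.

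Antigen presentation rose with both shRNAs and with the vector. Tap1, the peptide transporter, stood at 48.4, 47.4 and 45.8 CPM in the untransduced libraries, 112, 104 and 109 with shRNA 1 and 272, 288 and 314 with shRNA 2, with 79.0, 79.2 and 80.1 CPM under ppluc. All ppluc and knockdown libraries were above untransduced, and the net difference was 1.9 ± 0.04. B2m, the class I light chain, had 756, 911, 1083 and 1533 CPM untransduced, with ppluc, with shRNA 1 and with shRNA 2, a net 0.77 ± 0.06. Tapbp, the loading factor tapasin, stood at 39.0, 43.0 and 41.3 CPM in the untransduced libraries, 171, 163 and 179.7 with shRNA 1 and 127, 142 and 153 with shRNA 2, a net 1.9 ± 0.05, with a difference between the shRNAs of 0.28 ± 0.06 (adjusted p = 3.3e-04).

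The core of the interferon-stimulated response element, searched as GAAA followed by any 2 bases and GAAA on both strands of the 250 bases before each start (RefSeq, GRCr8), was found in 1140 of 33469 promoters, 3.41%. It was found in 16 of the 28 interferon genes and 7 of the 13 antigen presentation genes that have a single promoter entry. Overlapping matches were counted once per promoter. Promoters of the genes described above are shown because these genes moved together: 100 bases each, 5′ to 3′ toward the gene, with matches in capitals, which read as the reverse complement in Rsad2, Gbp2 and Tap1. They lie at chr6:48788213-48788312 (minus strand), chr14:15988816-15988915 (plus), chr12:41330366-41330465 (plus), chr2:234005627-234005726 (plus) and chr20:4668610-4668709 (minus).
Rsad2: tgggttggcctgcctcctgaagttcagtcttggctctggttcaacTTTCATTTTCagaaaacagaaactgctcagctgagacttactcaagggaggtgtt
Cxcl10: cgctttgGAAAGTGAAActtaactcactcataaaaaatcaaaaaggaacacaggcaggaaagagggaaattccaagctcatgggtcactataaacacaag
Oas1a: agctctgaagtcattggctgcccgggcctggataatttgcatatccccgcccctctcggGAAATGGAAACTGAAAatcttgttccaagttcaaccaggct
Gbp2: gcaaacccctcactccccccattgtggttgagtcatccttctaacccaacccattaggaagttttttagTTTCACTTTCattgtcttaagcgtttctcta
Tap1: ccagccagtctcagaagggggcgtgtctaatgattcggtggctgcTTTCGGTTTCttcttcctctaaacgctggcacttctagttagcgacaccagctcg
In Oas1a 2 overlapping matches form a single run of capitals. The base of the match nearest to the start lies 22 bases before it in Gbp2 and 26 bases before it in Oas1a.

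The integrated stress response had the highest median of the lists other than cell type markers, of which the 2 immune markers measured had a median of 2.02. All 8 matched immune markers summed to 0.513 to 0.648 CPM untransduced. At least 1 of the 2 measured therefore passed the filter only through the shRNA groups, so its rise was set by the filter. With shRNA 1 its median was 0.91, under the 1.33 of the p53 list, and with shRNA 2 it was 2.53. Asns, asparagine synthetase, stood at 2.14, 2.18 and 2.22 CPM in the untransduced libraries, 12.5, 12.4 and 11.8 with shRNA 1 and 75.5, 88.5 and 108 with shRNA 2, with 7.72, 9.27 and 9.2 CPM under ppluc, a net difference of 3.66 ± 0.09 without overlap. Ddit3, the factor CHOP, stood at 14.0, 13.1 and 14.0 CPM in the untransduced libraries, 50.2, 48.7 and 50.1 with shRNA 1 and 145, 169.9 and 177 with shRNA 2. For Ddit3 the net difference was 2.68 ± 0.06. Slc3a2, the heavy chain of amino acid transporters, stood at 114, 114 and 118 CPM in the untransduced libraries, 251, 236 and 241 with shRNA 1 and 1058, 1266 and 1250.1 with shRNA 2. For Slc3a2 the net difference was 2.21 ± 0.05. The secreted stress factor Gdf15 stood at 0.971, 1.09 and 1.11 CPM in the untransduced libraries, 10.3, 11.3 and 11.2 with shRNA 1 and 41.5, 47.7 and 73.2 with shRNA 2. For Gdf15 the net difference was 3.98 ± 0.14. In each of these the shRNA 2 libraries were the highest. Mthfd2, a mitochondrial folate enzyme, stood at 2.64, 24.9, 11.4 and 92.4 CPM untransduced, with ppluc, with shRNA 1 and with shRNA 2. Its difference was 3.03 ± 0.11 with ppluc and a net 3.42 ± 0.09, with shRNA 1 below and shRNA 2 above ppluc. Atf4 itself, the factor of this response that is controlled in translation, differed by a net 0.57 ± 0.04, from 0.08 ± 0.05 with shRNA 1 to 1.07 ± 0.05 with shRNA 2. Shmt2, Psat1 and Psph, serine and glycine enzymes, differed by -0.11 ± 0.08 (adjusted p = 0.21), -0.37 ± 0.09 and -0.48 ± 0.08 with shRNA 1, the last 2 being lower, and were higher with shRNA 2 (2.24 ± 0.08, 1.54 ± 0.09 and 0.73 ± 0.08).

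The core of the composite element bound by C/EBP and ATF factors, searched as TGATGNAA on both strands, was found in 1139 promoters, 3.4%, and in 3 of 19 stress response genes with a single entry. Trib3, a pseudokinase target of CHOP, stood at 2.69, 2.72 and 3.31 CPM in the untransduced libraries, 9.05, 7.01 and 7.26 with shRNA 1 and 93.2, 105 and 121 with shRNA 2. For Trib3 the net difference was 3.12 ± 0.1. Chac1, a glutathione-degrading enzyme, stood at 2.88, 1.8 and 2.68 CPM in the untransduced libraries, 4.59, 4.31 and 4.28 with shRNA 1 and 58.4, 65.5 and 76.3 with shRNA 2. For Chac1 the net difference was 2.63 ± 0.11. The windows lie at chr3:161275534-161275633 (minus strand) and chr3:126795918-126796017 (plus strand), and the capitals read as the reverse complement.
Trib3: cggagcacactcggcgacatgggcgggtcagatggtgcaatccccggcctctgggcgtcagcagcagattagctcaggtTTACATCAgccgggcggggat
Chac1: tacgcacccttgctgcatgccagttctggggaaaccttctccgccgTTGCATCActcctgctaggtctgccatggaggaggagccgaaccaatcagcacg
Both genes rose mainly with shRNA 2, where no library overlapped any other group.

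Both p53 targets and cell cycle genes were higher. Cdkn1a, the inhibitor p21, had deposited means of 435, 1354, 2038 and 4454 CPM untransduced, with ppluc, with shRNA 1 and with shRNA 2, a net 2.78. Mdm2, the ligase that degrades p53, stood at 131, 132 and 129 CPM in the untransduced libraries, 379.9, 372 and 377 with shRNA 1 and 598, 647 and 630.1 with shRNA 2, with 231, 210.4 and 224 CPM under ppluc. The groups rose in the order untransduced, ppluc, shRNA 1 and shRNA 2 without overlap (net 1.89 ± 0.04). Plk2, a stress-induced kinase, stood at 66.2, 68.9 and 65.2 CPM in the untransduced libraries, 236, 237 and 246 with shRNA 1 and 840.0, 949.8 and 910.3 with shRNA 2. For Plk2 the net difference was 2.79 ± 0.04. Sesn1 was the target that fell (-1.09 ± 0.04), and Ccng1 split, with -1.12 ± 0.06 under shRNA 1 and 1.33 ± 0.06 under shRNA 2. Among cell cycle genes the replication licensing factor Mcm5 stood at 0.453, 0.659 and 0.513 CPM in the untransduced libraries, 3.24, 2.94 and 3.27 with shRNA 1 and 7.87, 7.99 and 8.41 with shRNA 2, a net 2.43 ± 0.11, and Mcm6 at 9.49, 10.4 and 10.0 CPM in the untransduced libraries, 38.3, 38.9 and 37.1 with shRNA 1 and 32.0, 34.0 and 34.5 with shRNA 2. For Mcm6 the net difference was 1.79 ± 0.06. The mitotic kinase Cdk1 stood at 0.421, 0.515 and 0.770 CPM in the untransduced libraries, 2.84, 2.34 and 1.77 with shRNA 1 and 5.36, 4.89 and 4.95 with shRNA 2, a net 1.89 ± 0.14, from under 1 CPM. Mki67, the proliferation antigen, was the member that fell, at 10.1, 10.4 and 9.38 CPM in the untransduced libraries, 5.32, 6.28 and 6.57 with shRNA 1 and 9.31, 7.19 and 8.0 with shRNA 2. For Mki67 the net difference was -0.48 ± 0.1. The LT-tsA58 transgene stood at 12.1, 8.45, 9.08 and 19.2 CPM in the same order of groups, with its highest mean under shRNA 2, and its part in the cell cycle values was not tested. The D cyclin Ccnd1 was higher with ppluc than untransduced (1.11 ± 0.05), and its net difference was 1.61 ± 0.04.

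Most AP-1 and NF-kB genes were higher too. Of 24 AP-1 and immediate early genes 22 were higher and 1 lower (median 1.32), against 60.9% and 21.9% of all genes; 17 and 2 were after trimmed-mean scaling. Jun stood at 60.5, 63.7 and 63.5 CPM in the untransduced libraries, 231, 252 and 245 with shRNA 1 and 345, 353 and 351 with shRNA 2, a net 2.21 ± 0.04, and Atf3 at 1.17, 0.945 and 1.74 CPM in the untransduced libraries, 10.6, 11.9 and 9.63 with shRNA 1 and 32.5, 39.2 and 34.6 with shRNA 2. For Atf3 the net difference was 3.51 ± 0.12. Both rose with each shRNA without overlap, whereas Egr1, an early zinc finger factor, was lower with shRNA 1 (-1.31 ± 0.11) and higher with shRNA 2 (2.43 ± 0.11). Of 19 NF-kB and inflammation genes 15 were higher and 2 lower (median 0.75; 11 and 6 after trimmed-mean scaling). Icam1, an adhesion receptor for leukocytes, stood at 8.39, 9.74 and 8.84 CPM in the untransduced libraries, 31.3, 31.7 and 34.1 with shRNA 1 and 21.0, 20.5 and 20.2 with shRNA 2. For Icam1 the net difference was 1.47 ± 0.07. Vcam1, its relative, stood at 508, 519 and 119 CPM untransduced, with shRNA 1 and with shRNA 2, with differences of 0.03 ± 0.08 (adjusted p = 0.73) and -2.1 ± 0.08 and a difference between the shRNAs of 2.14 ± 0.08 (adjusted p = 1.7e-14). Of 19 Nrf2 and oxidative stress genes 11 were higher and 5 lower (9 and 10 after scaling), shares near those of all genes. Srxn1, sulfiredoxin, stood at 2.98, 3.75 and 3.73 CPM in the untransduced libraries, 30.3, 28.7 and 35.1 with shRNA 1 and 24.4, 22.9 and 23.2 with shRNA 2. For Srxn1 the net difference was 2.8 ± 0.08. Hmox1, heme oxygenase, stood at 42.9, 39.3 and 42.8 CPM in the untransduced libraries, 184, 185 and 188 with shRNA 1 and 173, 171 and 191 with shRNA 2, a net 2.11 ± 0.05, of which 1.08 ± 0.05 came with ppluc.

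For a smaller set most of the net change was already present with ppluc. Cdkn1c, the inhibitor p57, stood at 122, 143 and 137 CPM in the untransduced libraries, 640.0, 700.5 and 678 with shRNA 1 and 614, 473 and 502 with shRNA 2, with 684, 754 and 689.6 CPM under ppluc. All transduced groups were far above untransduced, and the net difference of 2.15 ± 0.07 was already there with ppluc (2.4 ± 0.08). Col5a1, a fibrillar collagen chain, stood at 224, 254 and 243 CPM in the untransduced libraries, 785, 877 and 817 with shRNA 1 and 624, 549.8 and 507 with shRNA 2, with 673, 794 and 677 under ppluc (net 1.5 ± 0.07, vector 1.57 ± 0.08), and Loxl2, a collagen crosslinking enzyme, at 28.7, 29.2 and 30.4 CPM in the untransduced libraries, 159, 169 and 159 with shRNA 1 and 111, 117 and 106 with shRNA 2, with 103, 105 and 99.4 (net 2.17 ± 0.04, vector 1.78 ± 0.05). In the other direction Dmd, dystrophin, went from 490.0, 467 and 452 CPM to 234, 251 and 241 with ppluc, 271, 287 and 261 with shRNA 1 and 244, 206 and 204 with shRNA 2, and Insig1, a brake on sterol synthesis, from 193, 193 and 189.6 CPM to 112, 105 and 98.0 with ppluc, 100.2, 98.7 and 104 with shRNA 1 and 112, 91.1 and 93.5 with shRNA 2. For Dmd and Insig1 the transduced groups lay close together. The knockdown differences from ppluc were 0.39 ± 0.04 for Loxl2, whose shRNA 1 libraries lay wholly above ppluc, -0.25 ± 0.07 for Cdkn1c, -0.07 ± 0.07 for Col5a1, 0.01 ± 0.05 for Dmd and -0.08 ± 0.06 for Insig1.

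Matrix genes as a list were mostly higher with ppluc than untransduced, with 26 of 34 higher and 3 lower. With knockdown against ppluc 10 were higher and 18 lower, against 64.4% and 18.4% of all genes, or 5 and 25 after trimmed-mean scaling. Their net result was 18 higher and 10 lower on the deposited scale and 13 and 15 after trimmed-mean scaling. The net losses included Eln, tropoelastin, at 1419, 1441 and 1432 CPM in the untransduced libraries, 496, 455 and 491 with shRNA 1 and 163, 104 and 109 with shRNA 2 (-2.56 ± 0.09), and Col1a1, the main fibrillar collagen chain, at 87.5, 83.0 and 76.2 CPM in the untransduced libraries, 24.4, 28.5 and 28.0 with shRNA 1 and 18.0, 20.2 and 14.5 with shRNA 2 (-1.9 ± 0.09); both had stood higher with ppluc, at 1802, 1917 and 1759.9 and 149, 139.9 and 115 CPM. The net gains included fibronectin, Fn1, with deposited means of 2191, 3906, 5785 and 8264 CPM and a net 1.65, and Fbn1, fibrillin, at 108, 102 and 99.1 CPM in the untransduced libraries, 306, 349 and 309 with shRNA 1 and 264, 259 and 236 with shRNA 2 (1.47 ± 0.06). The shRNAs parted in count, with 24 higher and 7 lower under shRNA 1 and 14 and 15 under shRNA 2, or 19 and 9, and 9 and 22, after scaling. Nid1, the basement membrane protein nidogen 1, stood at 10.8, 11.1 and 11.9 CPM in the untransduced libraries, 22.8, 24.5 and 23.0 with shRNA 1 and 1.37, 1.7 and 1.85 with shRNA 2, with 1.02 ± 0.1 under shRNA 1 and -2.47 ± 0.1 under shRNA 2.

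Some cholesterol synthesis genes returned to the untransduced level, mostly in the mean only. With ppluc 12 of 23 were lower and 1 higher. Against ppluc 16 rose and 3 fell with knockdown, near the 64.4% and 18.4% of all genes. Of the 10 that rose 1.5-fold 5 lay at the untransduced level, beside 664 of 4400 over all genes. The shRNAs were called in opposite directions for 4 of these 5, and of the other members that rose 3 lay beyond untransduced and 2 between. Against untransduced shRNA 1 left 15 lower and 5 higher (median -0.28) and shRNA 2 left 19 higher and 3 lower (median 0.69). After trimmed-mean scaling 11 were higher and 9 lower than with ppluc, 4 passed 1.5-fold upward with 2 of them at the untransduced level, and shRNA 2 left 12 higher and 7 lower (median 0.20). The net median of the list turned from 0.17 to -0.19. Fdft1, squalene synthase, stood at 89.4, 89.0 and 84.6 CPM in the untransduced libraries, 75.4, 67.3 and 68.9 with shRNA 1 and 164, 135 and 148 with shRNA 2, with 64.7, 64.8 and 69.7 CPM under ppluc, so that its net 0.22 ± 0.05 averaged a value below untransduced and another above it and turned to -0.15 after scaling. Sqle, squalene epoxidase, rose with both, at 40.9, 43.1 and 41.4 CPM in the untransduced libraries, 65.2, 61.5 and 61.9 with shRNA 1 and 147, 129 and 147 with shRNA 2 (net 1.16 ± 0.05).

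Over all genes, 5008 were called higher with both shRNAs against untransduced, 1574 lower with both, and 1773 in opposite directions, 763 of these higher with shRNA 1. Both balances turned after trimmed-mean scaling, to 2813 higher with both, 3047 lower with both and 1757 in opposite directions, 982 of these higher with shRNA 1. Gja5, connexin 40 of the atrium, was among these, at 9.46, 9.59 and 8.81 CPM in the untransduced libraries, 66.9, 65.7 and 55.8 with shRNA 1 and 1.01, 0.620 and 1.14 with shRNA 2, with 20.9, 17.6 and 20.8 CPM under ppluc. No groups overlapped. The net difference of -0.05 ± 0.11 (adjusted p = 0.65; -0.35 and called after scaling) was the mean of 2.69 ± 0.12 and -2.8 ± 0.12, and the difference between the shRNAs was 5.49 ± 0.12 (adjusted p = 4.6e-17).

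A few genes changed with knockdown against ppluc but stayed on the vector's side of untransduced. Macrod1, a mitochondrial macrodomain protein, fell from 21.5, 22.9 and 24.1 CPM to 3.71, 4.8 and 3.85 with ppluc and stood at 6.64, 5.89 and 6.13 with shRNA 1 and 14.3, 14.2 and 15.7 with shRNA 2, a rise of 1.14 ± 0.09 over ppluc and a net difference of -1.2 ± 0.09. Lrrc66, a leucine-rich repeat protein, was near the filter untransduced, at 0.874, 0.458 and 0.855 CPM, rose to 16.1, 13.7 and 16.7 with ppluc and stood at 11.1, 13.4 and 11.1 with shRNA 1 and 5.42, 5.02 and 5.28 with shRNA 2. Klf4, a zinc finger factor, was the member of the AP-1 list of this kind, at 26.3, 93.8, 87.8 and 37.7 CPM in the order untransduced, ppluc, shRNA 1 and shRNA 2.

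The remaining lists had medians from -0.40 to 0.61. Cardiac transcription factors were 14 of 19 lower and 2 higher (median -0.40). Among them Mef2a, a muscle transcription factor, stood at 513, 503 and 513 CPM in the untransduced libraries, 298, 308 and 297 with shRNA 1 and 133, 129 and 133 with shRNA 2 (-1.35 ± 0.04), and Gata4, a cardiac zinc finger factor, at 393, 494 and 385 CPM untransduced, with shRNA 1 and with shRNA 2 (0.15 ± 0.04, and -0.22 after scaling). Intercalated disc and costamere genes were 15 of 24 lower and 5 higher (median -0.34), glycolysis genes 14 of 23 lower and 7 higher (median -0.29), heat shock genes 13 of 19 lower and 4 higher (median -0.23). After trimmed-mean scaling these splits were 21 lower and 3 higher, 17 and 5, and 17 and 2. Unfolded protein response genes were 17 of 20 higher and 2 lower (median 0.51), beside 60.9% higher over all genes, and 11 and 5 after scaling (median 0.14). Within glycolysis the muscle isoenzymes fell, Eno3 from 261 CPM to 61.9 and 18.0 (-2.94 ± 0.05) and Pgam2 from 27.7 to 1.5 and 1.5 (-3.83 ± 0.13). Pgam1, the general form, was higher with the vector and with both shRNAs (418, 795, 751 and 725 CPM). YAP and TGF-beta targets were 12 of 19 higher and 5 lower (median 0.61), a share near that of all genes, cell cycle inhibitors and D cyclins 10 of 12 higher and 1 lower (median 0.61), and muscle protein degradation and autophagy genes 12 higher and 12 lower of 26 (median 0.05). After scaling these were 11 and 7, 7 and 5, and 6 and 18, and the last median turned to -0.32. In the YAP and TGF-beta list Ctgf, a matricellular protein, stood at 219, 249 and 229 CPM in the untransduced libraries, 612, 656 and 617 with shRNA 1 and 336, 322 and 323 with shRNA 2. For Ctgf the net difference was 0.96 ± 0.05. Ribosomal proteins were 11 of 24 higher and 2 lower and proteasome subunits 23 of 26 higher and 0 lower, but after trimmed-mean scaling these counts were 3 and 13, and 8 and 8, so that the deposited scale set their direction.

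Atrial myocyte markers were present in every group: all 9 matched markers were measured, and their summed level was 41462.5 to 42069.6 CPM untransduced, 45730.5 to 53002 with ppluc, 26885 to 31074 with shRNA 1 and 15846 to 21196 with shRNA 2. Markers of other cell types followed no common course. Immune markers summed to 0.513 to 0.648 CPM untransduced and 15.1 to 18.2 with shRNA 2, where Cd14 made up most of it (15.5 CPM); 3 of the 8 matched were at 0 in every library and 2 were measured above the filter. Fibroblast markers summed to 81.2 to 92.4 CPM untransduced and 20.9 to 32.2 over both shRNAs, with 4 of 9 measured and 2 at 0 throughout. Endothelial markers summed to 131 to 153 CPM untransduced, 210.3 to 225 with shRNA 1 and 60.4 to 102 with shRNA 2, nearly all of it Kdr, with 3 of 8 at 0 throughout. Epicardial markers summed to 223 to 238 CPM untransduced and 150.0 to 181 with shRNA 2, and neuronal and glial markers to 282 to 298 and 122 to 147. Smooth muscle markers, which include Acta2, Tagln and Cnn1 of immature heart muscle, summed to 14999 to 15316 CPM untransduced and 6661 to 11767 over both shRNAs. The part of any other cell type in the results was not tested.

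The 15 largest net falls by the naming rule included Sbk2, Ckm, Hrc, Myh6, Myh7 and Perm1. For the largest falls and rises the rule took only called genes whose knockdown libraries did not overlap the untransduced ones. Their separation from untransduced was therefore set by the choice and is no result. Pygm, the glycogen phosphorylase of muscle, stood at 157, 159.7 and 164 CPM in the untransduced libraries, 15.5, 14.5 and 17.9 with shRNA 1 and 5.81, 6.41 and 9.53 with shRNA 2, and its net difference was -3.85 ± 0.1. Aqp4, a water channel, stood at 35.3, 35.3 and 32.2 CPM in the untransduced libraries, 0.628, 0.516 and 0.714 with shRNA 1 and 2.87, 3.25 and 3.65 with shRNA 2, a net -4.09 ± 0.09, with a difference between the shRNAs of -1.75 ± 0.11. Rcan2, a calcineurin regulator, stood at 109, 109.9 and 110.3 CPM in the untransduced libraries, 9.41, 8.65 and 11.2 with shRNA 1 and 1.54, 1.33 and 2.86 with shRNA 2, a net -4.5 ± 0.13, with a difference between the shRNAs of 2.14 ± 0.15. Prelp, a matrix proteoglycan, fell with both, to 0.562, 0.486 and 0.739 and to 1.05, 0.434 and 1.09 CPM from 30.5, 29.8 and 24.5 (-4.58 ± 0.15). Sh3kbp1, an adaptor of receptor endocytosis, stood at 217, 223 and 214 CPM in the untransduced libraries, 58.6, 59.8 and 61.3 with shRNA 1 and 2.32, 3.44 and 4.14 with shRNA 2, with no overlap between these groups and a net -3.87 ± 0.1. The 15 largest net rises included Rsad2, Oasl, Gdf15, Asns and Gbp4. Tnfrsf12a, the TWEAK receptor, stood at 7.42, 8.62 and 9.58 CPM in the untransduced libraries, 129, 115 and 111 with shRNA 1 and 155, 189 and 197 with shRNA 2, a net 4.02 ± 0.08. Rnd1, a small GTPase that loosens adhesion, stood at 8.78, 9.19 and 10.2 CPM in the untransduced libraries, 83.1, 79.3 and 81.9 with shRNA 1 and 159, 178 and 189.6 with shRNA 2, a net 3.6 ± 0.07. In both genes all knockdown libraries lay above untransduced, as the rule required. Creb5, a leucine zipper factor, stood at 0.194, 0.401 and 0.257 CPM in the untransduced libraries, 10.0, 11.8 and 9.8 with shRNA 1 and 11.0, 10.8 and 9.99 with shRNA 2, a net 3.83 ± 0.12, and the shRNA libraries overlapped (difference between the shRNAs -0.01 ± 0.14, adjusted p = 0.93). Plat, tissue plasminogen activator, stood at 2.23, 2.43 and 2.22 CPM in the untransduced libraries, 18.1, 19.5 and 17.5 with shRNA 1 and 68.7, 70.0 and 69.7 with shRNA 2, a net 3.7 ± 0.08. With ppluc the differences of Rnd1 and Creb5 were -0.46 ± 0.08 and 0.69 ± 0.14. Tg, thyroglobulin in the annotation, was the largest rise by that rule, and most of it was present with ppluc: it stood at 0.421, 0.916 and 0.912 CPM untransduced, 18.5, 18.2 and 17.4 with ppluc, 17.7, 21.1 and 17.0 with shRNA 1 and 37.7, 45.9 and 42.8 with shRNA 2.

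**Figure D5:**
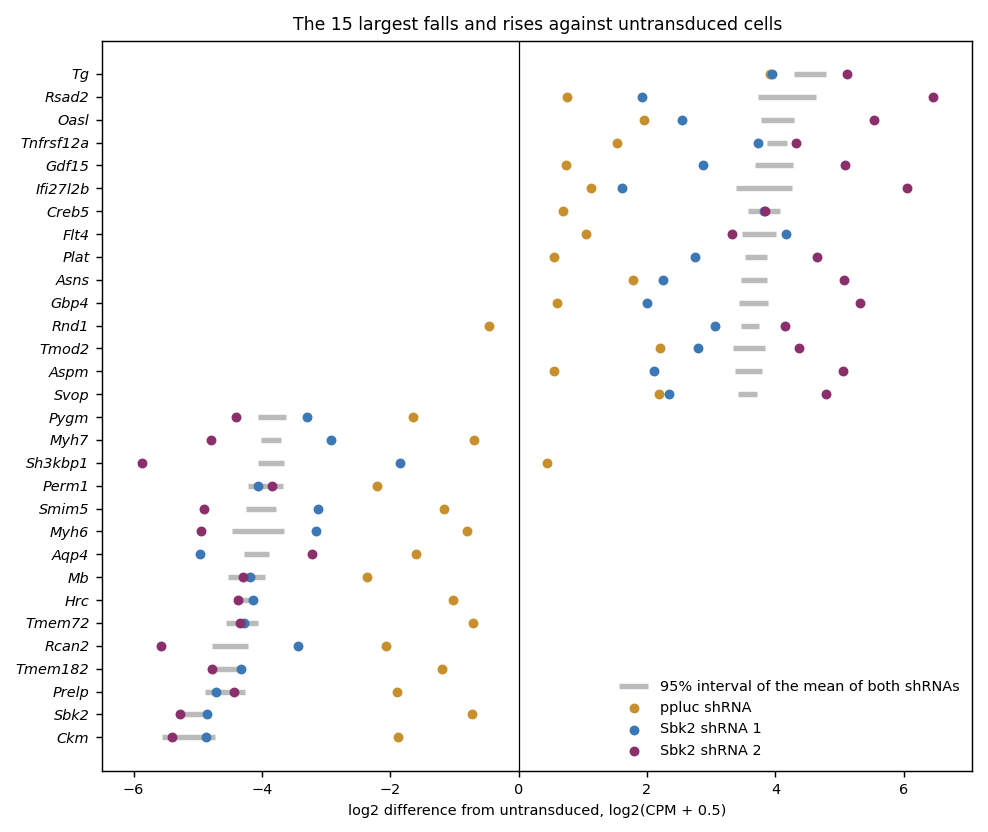
Log2 difference from untransduced for the 15 largest falls and 15 largest rises by the mean of both shRNAs, with ppluc, shRNA 1 and shRNA 2 as points and the 95% interval of the mean of both shRNAs as a grey bar. Ppluc lies on the same side as the shRNAs for most of them, and the shRNA 2 point lies farther from 0 than the shRNA 1 point for most rises.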

How the data were processed

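The labels describe polyA-selected RNA sequencing of 12 samples in 4 groups of 3, and the groups were taken from the sample titles. Rnor_6.0 and DESeq2 are named, without a role, per the submitters' processing notes. Which aligner, counting program and annotation release were used was not given in the sources used here. As deposited, CPM values are assigned reads relative to the library total, and per the file headers each is the authors' average of a group's 3 libraries. The deposited TPM values, which the authors also scaled by transcript length and averaged, were read but no result rests on them. The authors' averages carry no error, so the single libraries were recovered: for each feature the whole-read triple was sought whose CPM values give the deposited mean exactly. A single triple was found for 99.8057% to 99.9589% of the features above 0 in a group. The recovered libraries carry no replicate number. Genes with several triples are given as deposited means with no error.

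Log2(CPM + 0.5) of all 12 libraries was fitted with limma 3.58.1 in R 4.3.3 with a trend in the variance, and p-values were adjusted by Benjamini-Hochberg over 12642 features. The pseudocount makes changes of low genes smaller than they are, and ± gives the SE over 3 libraries a group. Calls mean an adjusted p under 0.05, and sizes were judged at 1.5-fold. The fit was tested on simulated data. Libraries of 30274847 to 47517427 reads set the precision, and the floor of 3 reads covers counting error only. Alternatives were other scalings, pseudocounts of 0.1 and 1, other filters, voom weights, a 2-fold threshold, fits of fewer groups and leaving out each library.

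The comparison, the 40 gene lists and the tests were chosen with earlier results of these data known. The naming rule took the Sbk genes, the 4 markers, the 15 largest rises and falls, up to 4 members of each list with the smallest p and up to 3 nearest to untransduced, and the 8 largest changes against ppluc in each class. The largest rises and falls were taken among called genes with a symbol and a minimum level in the higher group. Their knockdown libraries also had to lie apart from the untransduced ones. Other genes named were chosen as examples of their lists after their values were seen. Promoter sequences came from RefSeq (GRCr8), and coordinates of genes are those of the deposited table (Rnor_6.0).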

Additional observations from a re-analysis of the deposited data

Results flagged for a closer look

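Among the 132 features named above, 16 were called in opposite directions against untransduced by the shRNAs, and the difference between the shRNAs was itself called by limma. Over all genes 1773 of 12642 were called in opposite directions, so such calls were not particular to the named genes. The naming rule also took list members nearest to untransduced, which favours them. These are differences of shRNA 1 minus shRNA 2 on the log2 scale. Higher with shRNA 1 and lower with shRNA 2 were Gja5, by 5.49, Nid1, by 3.49, Acta1, by 3.44, Cnn1, by 1.68, Cnn2, by 1.56, Kdr, by 1.49, Flna, by 1.0, Csrp1, by 0.75, and Txn1, by 0.49. Lower with shRNA 1 and higher with shRNA 2 were Egr1, at -3.75, Ccng1, at -2.45, Psat1, at -1.9, Eno1, at -1.24, Psph, at -1.21, Fdft1, at -1.07, and the LT-tsA58 transgene, at -1.05. After trimmed-mean scaling the opposite calls were kept by 12 of these; those of Csrp1, Eno1, Txn1 and the transgene were not.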

How the results depend on the processing

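The 5 counts of called genes stayed within 1.5 times of the reported count under each of the 40 alternative values and 60 values from leaving out a library; for both shRNAs against untransduced the latter ran from 10086 to 10645. The class counts moved with the threshold. At 2-fold, changes against ppluc divided into 1474 beyond untransduced, 441 at it, 224 between and 1 on the vector's side, and net changes into 1276 with knockdown only, 1003 mixed, 189 present with the vector, 106 where both add and 11 against the vector. Changes left on the vector's side numbered 41 with a pseudocount of 0.1, 16 with a pseudocount of 1 and 45 with voom weights, and those against the vector 200, 85 and 196. The cause was not tested beyond the settings themselves. Without any 1 library, genes beyond untransduced numbered 3834 to 4037 and genes at it 694 to 820.

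Small net differences changed sign with scaling. After trimmed-mean and median-of-ratios scaling the values were -0.0745 and -0.0583 for Bmp10, -0.22 and -0.20 for Cnn2, -0.33 and -0.31 for Flna, -0.24 and -0.22 for Kcna4, -0.10 and -0.0840 for Fbxo8, -0.14 and -0.12 for Utp15, -0.24 and -0.22 for Psph, -0.26 and -0.25 for Ccng1, -0.15 and -0.13 for Fdft1, -0.22 and -0.21 for Gata4, and -0.23 and -0.21 for the LT-tsA58 transgene. Of 40 list medians 8 turned from positive to negative under trimmed-mean scaling. No paired analysis was possible because the recovered libraries carry no replicate number, and none was planned. Depth limits genes under the floor of 0.0631 to 0.0991 CPM.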
